A study of Mus musculus with 16 samples.

Results

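The mevalonate arm is the stretch of isoprenoid synthesis that runs from acetyl-CoA to farnesyl and geranylgeranyl diphosphate. It was examined here through 8 genes, matched by symbol among the 55487 genes of the deposited tables: Acat2, Hmgcs1, Mvk, Pmvk, Mvd, Idi1, Fdps and Ggps1. All 8 were found and all 8 passed the filter on low counts. They were followed across 16 lines of pancreatic ductal adenocarcinoma organoids, epithelial cultures that grow as small three-dimensional bodies in a basement membrane gel (Matrigel). The lines came from 6 mice of the KPC model, strain C57BL6/J. As background, KPC mice are engineered to form pancreatic tumors through a Cre transgene active in pancreatic cells, and the labels name the model without its alleles or the animals' ages. The 7 tumor lines were grown from primary tumors, 1 each from mice 1 to 5 and 2 from mouse 6. The 9 metastasis lines came from peritoneum (3 lines, mice 2, 3 and 4), liver (2 lines, mice 1 and 6), diaphragm (2 lines, mice 5 and 6), lung (1 line, mouse 5) and ovary (1 line, mouse 6). The labels give no treatment, and every line was grown in the same medium, with EGF, FGF-10, gastrin, noggin, R-spondin, nicotinamide and the TGF-beta receptor inhibitor A83-01. The comparison asks whether the enzymes of this arm differ between metastasis and primary tumor organoids of the same animals.

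The arm starts when Acat2, the cytosolic acetoacetyl-CoA thiolase, joins acetyl-CoA units, and Hmgcs1, the cytosolic HMG-CoA synthase, adds another to give HMG-CoA, which is reduced to mevalonate. Mvk and Pmvk, mevalonate kinase and phosphomevalonate kinase, add phosphates, and Mvd, the diphosphomevalonate decarboxylase, yields isopentenyl diphosphate. Idi1 isomerizes that unit, Fdps, farnesyl diphosphate synthase, joins such units into farnesyl diphosphate, and Ggps1, geranylgeranyl diphosphate synthase, extends it by another unit. Farnesyl diphosphate feeds cholesterol, dolichol, ubiquinone and protein farnesylation, and geranylgeranyl diphosphate anchors small GTPases such as Rab proteins to membranes. Genes of sterol synthesis are classically switched on by SREBP-2 when sterol runs low, through sterol response elements that work beside CCAAT boxes bound by NF-Y. Acat2 of this arm is not the cholesterol acyltransferase that once carried the same name.

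RefSeq promoter windows on GRCm38.p6, 250 bases before to 50 bases after a start, were at hand for 7 of the 8 genes; Fdps had none. The 200 bases before the start are printed for 3 genes. Hmgcs1 holds the only sterol response element core found. Mvk and Mvd are 1 of several pairs whose levels rose and fell together across the lines (Pearson r = 0.77), while that of Hmgcs1 did not follow them. Acat2 with Mvk (0.84), Pmvk with Mvd (0.84) and Mvk with Pmvk (0.81) were closer pairs, and Acat2 holds no CCAAT match. A link between motifs and shared variation was not tested. They lie at chr13:119690151-119690350 on the plus strand for Hmgcs1, at chr5:114444069-114444268 on the plus strand for Mvk and at chr8:122443423-122443622 on the minus strand for Mvd, and 0 annotated GENCODE exons overlap these stretches. Capitals mark TCACCCCAC, CCAAT, or ATTGG, which is CCAAT on the opposite strand.
Hmgcs1: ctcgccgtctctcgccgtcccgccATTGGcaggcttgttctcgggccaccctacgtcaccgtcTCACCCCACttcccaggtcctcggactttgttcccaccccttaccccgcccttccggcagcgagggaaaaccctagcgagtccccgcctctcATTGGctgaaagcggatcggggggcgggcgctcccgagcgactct
Mvk: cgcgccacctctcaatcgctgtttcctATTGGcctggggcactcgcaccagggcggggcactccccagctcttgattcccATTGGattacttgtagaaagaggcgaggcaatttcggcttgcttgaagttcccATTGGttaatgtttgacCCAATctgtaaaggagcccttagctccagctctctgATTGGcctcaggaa
Mvd: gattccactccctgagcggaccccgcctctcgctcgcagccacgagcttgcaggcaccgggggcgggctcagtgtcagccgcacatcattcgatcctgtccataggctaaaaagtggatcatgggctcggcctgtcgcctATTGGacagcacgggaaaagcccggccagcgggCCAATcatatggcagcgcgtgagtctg
The letters TCACNCCAC, searched on both strands, occurred in 1 of 7 genes, Hmgcs1, and in 1.24% of 32851 windows of the same length. In Hmgcs1 the match began 137 bases before the RefSeq start, which lies upstream of the GENCODE start at 119690379. CCAAT was found on either strand in 6 of 7, all but Acat2, against 37.4% of all windows. Genes are counted if any of their windows matched, and Pmvk, with 2 windows, matched in window 1 only. Mvk held 5 matches and Mvd 2, all within the printed stretch. The E box CACGTG was found in 0 of 7 genes, against 7.15% of all windows. The motifs do not overlap in the printed stretches. A match is a run of letters and was not tested for binding.

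Epithelial markers were high in every line, with a summed level of 6 genes of 3673 to 5301 counts scaled to library size (CPM) in tumor lines and 3538 to 7178 in metastasis lines. Of 7 fibroblast genes the sum stayed at or below 0.775 CPM, and of 4 endothelial genes at or below 1.71 CPM. The sum of 5 immune genes reached at most 5.08 CPM, mostly from Cd68 (1.04 to 4.91 CPM over the lines), while Ptprc, the leukocyte marker, reached at most 0.832 CPM. Total expected counts per line ran from 24624420 to 49965492. Reads that follow ribosomal RNA were the main technical difference: 3 genes that collect them held 0.0463% to 29.9% of the counts in tumor lines and 0.0185% to 72.7% in metastasis lines, highest in tumor replicate 2 of mouse 2 and in metastasis replicate 4, the diaphragm line of mouse 5. Of 8 p53 target genes, all 8 fell in metastasis lines by the stage test described next. Their summed level was 1032 to 1618 CPM in 6 tumor lines, 148 to 253 CPM in the metastasis lines, and 259 CPM in tumor replicate 6 of mouse 6. Of 6 hepatocyte genes 1 fell, Ttr (69.6 CPM in tumor and 1.36 CPM in metastasis lines), while Alb, the defining one, reached at most 1.31 CPM. The part of the p53 targets and of Ttr in the results below was not tested. Values with and without the 3 lines that stand apart are given where the calls change.

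Per unit of transcript length, Fdps was the most abundant message of the arm and Ggps1 the least. Levels between genes are given in TPM, the length-scaled unit of the tables, rescaled after 5 genes that collect ribosomal RNA reads were left out. Fdps averaged 480 ± 103 TPM (SD, n = 16 lines) and ranked first in 16 of 16 lines. Ggps1 averaged 18.9 ± 3.92 TPM and ranked last in 16 of 16. Fdps stood 16.1 to 42.9 times above Ggps1 within a line.

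Between these extremes came Acat2 with 189 ± 44.4 TPM, Hmgcs1 with 179 ± 37.1 TPM and Idi1 with 167 ± 29.2 TPM. These 3 did not keep an order: Acat2 exceeded Hmgcs1 in 9 of 16 lines and Idi1 in 10 of 16. Pmvk followed with 102 ± 21.9 TPM, below Hmgcs1 in 16 of 16 lines and below Idi1 in 15 of 16. Mvd, with 79.3 ± 24.2 TPM, lay above Mvk, with 54.4 ± 11.2 TPM, in 15 of 16 lines. Summed over the 8 genes, the arm reached 1010 to 1496 TPM in tumor lines and 1165 to 1571 TPM in metastasis lines, so the groups overlapped. Fdps alone made up 29.8% to 46.8% of that sum.

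**Figure D1:**
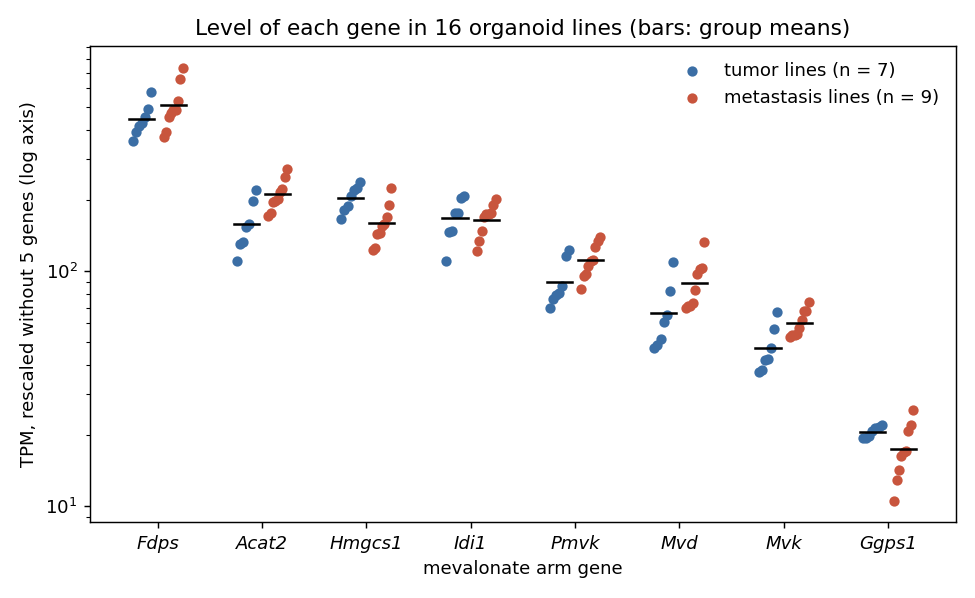
TPM of each of the 8 genes on a log axis, 1 point per line, tumor lines blue and metastasis lines red, with black bars for group means. Fdps is highest and Ggps1 lowest in 16 of 16 lines, with Acat2, Hmgcs1 and Idi1 at similar levels between them.

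Metastasis lines were compared with tumor lines of the same mouse by edgeR's quasi-likelihood test with a term for each mouse, with Benjamini-Hochberg adjustment over 15573 genes and a threshold of 0.05. Of the 8 genes, Acat2 and Mvk rose and none fell, while 16.5% of all genes tested were called, 6.59% higher and 9.92% lower. The members' log2 fold changes had a median of 0.23, against -0.02 over all genes, with 5 above and 3 below 0. At an unadjusted p under 0.05 the count was 6 of 8, against 5240 of 15573 genes. Changes estimated over all mice were small, at most 1.34-fold in either direction. Within single mice they were larger, up to -1.18 (Hmgcs1, mouse 2) and 1.07 (Mvd, mouse 4) on the log2 scale. Levels in this comparison are CPM on library sizes scaled by the trimmed mean of M values (TMM). In such bulk samples, fewer cells of a type and less RNA per cell cannot be told apart.

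At the entry of the arm, Acat2 (GRCm38.p6, as for all positions here, chromosome 17, 12942890 to 12960747) rose and Hmgcs1 (chromosome 13, 119690379 to 119708260) went the other way. Acat2 ran from 173 to 365 CPM in tumor lines, with a median of 244, and from 268 to 390 CPM in metastasis lines, with a median of 327. The groups overlapped. Tumor replicate 6 held the highest tumor value, 365 CPM, and 1 metastasis line exceeded it. Tumor replicate 7, at 272 CPM, also lay above the lowest metastasis line, metastasis replicate 4 at 268 CPM. The means were 245 ± 62.1 CPM (SD, n = 7) and 319 ± 41.3 CPM (n = 9), or 0.39 higher on the log2 scale (SE 0.11, adjusted p = 0.0378). Metastasis lines were higher in 6 of 6 mice, by 0.07 in mouse 6 and by 0.82 in mouse 3 on the log2 scale. Acat2 passed in 15 of 38 alternative settings. It lost its call when tumor replicate 1, 2, 3, 4, 5 or 7, or metastasis replicate 1, 2, 3, 5 or 9, was left out, with adjusted p from 0.0512 to 0.101, and kept it without tumor replicate 6 (0.49, adjusted p = 0.00414).

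Hmgcs1 ran from 380 to 562 CPM in tumor lines, with a median of 460, and from 248 to 567 CPM in metastasis lines, with a median of 348. In 6 of 9 metastasis lines it lay below the lowest tumor line, whereas the diaphragm line of mouse 6 lay above every tumor line. The log2 fold change was -0.43 (SE 0.14, adjusted p = 0.0621), which did not pass. Values were lower in metastasis lines in 6 of 6 mice, by -1.18 in mouse 2 and -0.95 in mouse 1 but only by -0.07 in mouse 6. In mouse 2 the tumor line held 562 CPM and the peritoneum line 248 CPM. The difference passed in 5 of 38 alternative settings, among them DESeq2 (-0.41, adjusted p = 0.0323) and the fits without tumor replicate 7 (-0.50, adjusted p = 0.0458), without metastasis replicate 7 (-0.49, adjusted p = 0.0356) and without mouse 6 (-0.56, adjusted p = 0.0431). Acat2 and Hmgcs1, consecutive enzymes, thus differed in opposite directions in each of the 6 mice, and their Pearson correlation over the 16 lines was -0.36.

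Mvk (chromosome 5, 114444269 to 114460591), the kinase that acts first on mevalonate, rose with the smallest error of the 8. It ran from 39.4 to 64.8 CPM in tumor lines, with a median of 44.1, and from 49.4 to 77.2 CPM in metastasis lines, with a median of 62.8. The 5 tumor lines of mice 1 to 5 held at most 49.8 CPM, the pair of tumor lines of mouse 6 held 61.6 and 64.8 CPM, and 3 metastasis lines exceeded both. The log2 fold change was 0.34 (SE 0.08, adjusted p = 0.0174), a 1.27-fold difference, and metastasis lines were higher in 6 of 6 mice, by 0.13 in mouse 6 to 0.69 in mouse 3. Mvk passed in 29 of 38 alternative settings. The call was lost narrowly without tumor replicate 3 (adjusted p = 0.0513), tumor replicate 5 (0.0533) or metastasis replicate 2 (0.0509).

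The next kinase, Pmvk (chromosome 3, 89454541 to 89469013), did not pass. It ran from 55.3 to 103 CPM in tumor lines, with a median of 64.1, and from 61.3 to 113 CPM in metastasis lines, with a median of 83.1. The log2 fold change was 0.28 (SE 0.13, adjusted p = 0.147), with metastasis lines higher in 5 of 6 mice and lower by -0.08 in mouse 6. Mvd (chromosome 8, 122433601 to 122443422) had the widest spread of the arm, 2.89-fold between its lowest and highest line. It ran from 57.6 to 142 CPM in tumor lines, with a median of 75.3, and from 73.9 to 167 CPM in metastasis lines, with a median of 98.0. The highest tumor value belonged to tumor replicate 6 of mouse 6 and the highest value of all to the peritoneum line of mouse 4. The log2 fold change was 0.39 (SE 0.13, adjusted p = 0.0571), and metastasis lines were higher in 6 of 6 mice, by 0.10 in mouse 1 and 1.07 in mouse 4.

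The count of genes called depended on single lines. Without tumor replicate 6, 4 of the 8 genes rose: Acat2, Mvk (0.38, adjusted p = 0.00779), Mvd (0.50, adjusted p = 0.0063) and Pmvk (0.38, adjusted p = 0.0377), while the count over all genes went from 2571 to 3910. Against the other tumor line of the same mouse, tumor replicate 6 was higher by 0.69 on the log2 scale for Mvd, 0.42 for Acat2 and 0.37 for Pmvk, near it for Mvk (0.07) and Ggps1 (-0.08), and lower for Fdps (-0.19). It was also the tumor line with the lowest level of p53 targets, and whether the levels are linked was not tested. Without tumor replicate 3 or 5, or metastasis replicate 2, the count was 0 of 8, and without tumor replicate 5 the count over all genes was 1133. With both metastasis replicate 4 and tumor replicate 2 left out, the libraries with the most ribosomal RNA reads, 0 of 8 passed (Mvk 0.34, adjusted p = 0.0684, and Acat2 0.37, adjusted p = 0.121), with 794 genes called in all.

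**Figure D2:**
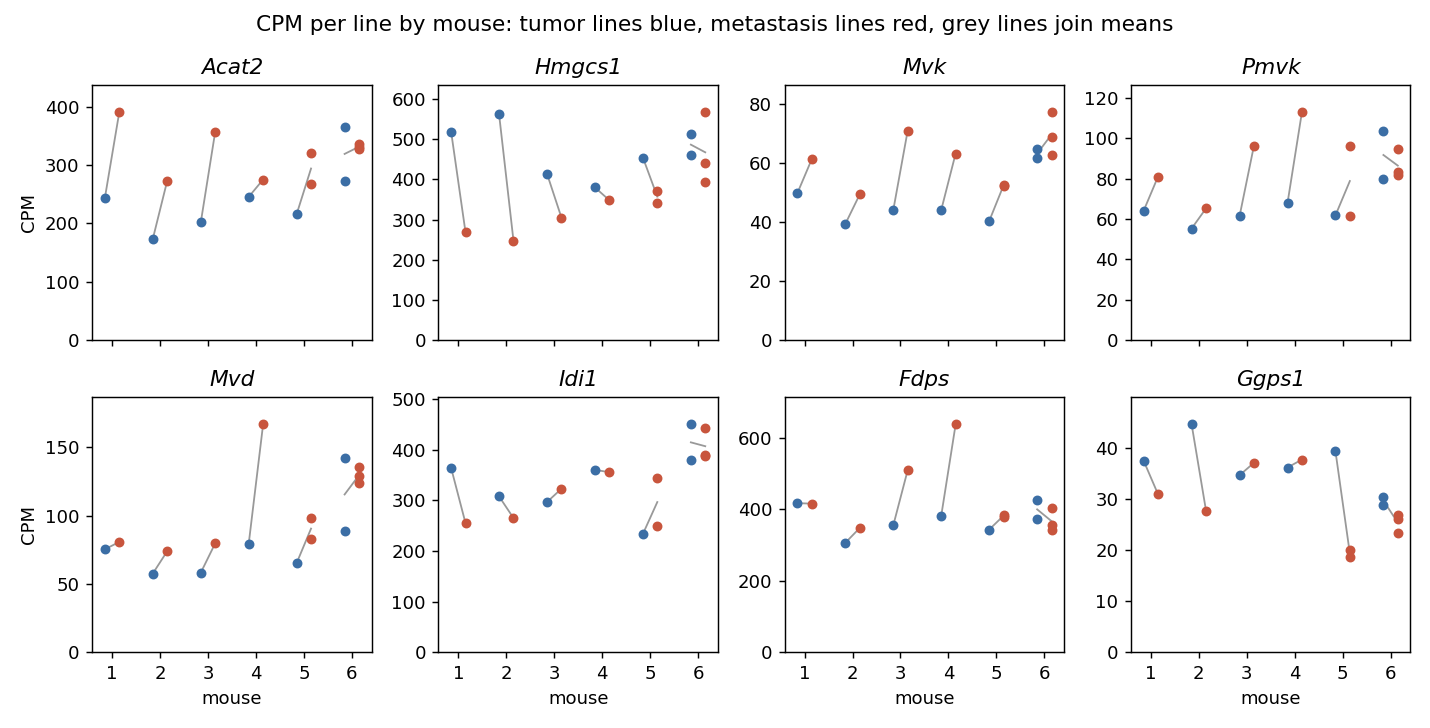
CPM of each gene by mouse, tumor lines blue and metastasis lines red, with grey lines joining the mean of each kind within a mouse. Acat2, Mvk and Mvd slope upward and Hmgcs1 downward in 6 of 6 mice, and the slopes are shallow in mouse 6.

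At the isoprenoid end of the arm no gene passed. Idi1 (chromosome 13, 8885501 to 8892451) ran from 233 to 450 CPM in tumor lines, with a median of 360, and from 250 to 443 CPM in metastasis lines, with a median of 343. Its log2 fold change was -0.03 (SE 0.11, adjusted p = 0.868). The 95% interval, from the SE and 9 residual degrees of freedom, ran from -0.28 to 0.21, and metastasis lines were higher in 2 of 6 mice. Fdps (chromosome 3, 89093588 to 89101959) ran from 306 to 425 CPM in tumor lines, with a median of 374, and from 342 to 638 CPM in metastasis lines, with a median of 384. Its log2 fold change was 0.17 (SE 0.11, adjusted p = 0.290, interval -0.07 to 0.42), and it moved to 0.09 without tumor replicate 4 and to 0.11 without metastasis replicate 3. The peritoneum lines of mice 4 and 3, at 638 and 509 CPM, were the only lines above every tumor line.

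Ggps1 (chromosome 13, 14050659 to 14063488) ran from 28.9 to 44.6 CPM in tumor lines, with a median of 36.2, and from 18.6 to 37.7 CPM in metastasis lines, with a median of 26.8. In 6 of 9 metastasis lines it lay below the lowest tumor line, and both metastasis lines of mouse 5 were the lowest of all, at 18.6 and 20.1 CPM against 39.3 CPM in the tumor line of that mouse. The log2 fold change was -0.36 (SE 0.13, adjusted p = 0.0737), and it passed in 0 of 38 alternative settings. It moved to -0.21 without tumor replicate 5 and to -0.18 without mouse 5. Metastasis lines were lower in 4 of 6 mice, by -1.02 in mouse 5, and higher in mice 3 and 4 by 0.10 and 0.06.

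The 3 genes with a log2 fold change below 0, Hmgcs1, Idi1 and Ggps1, all lie on chromosome 13. That chromosome was low as a whole in metastasis lines. For each line, the median over the tested genes of the chromosome of log2 CPM minus the gene's mean was taken as the chromosome level. Where the level was subtracted from a gene, that gene was left out of the median. For chromosome 13 (649 genes) it averaged 0.17 ± 0.10 in tumor lines and -0.11 ± 0.23 in metastasis lines, and metastasis lines were lower in 6 of 6 mice, by a mean of -0.28 ± 0.22. On this chromosome 132 of 649 genes fell and 16 rose. The lowest level, -0.59, was in the diaphragm line of mouse 5, followed by -0.29 in the lung line of mouse 5, the same 2 lines that were lowest for Ggps1.

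Chromosome 3, with Pmvk and Fdps, was higher in metastasis lines in 5 of 6 mice, by a mean of 0.22 ± 0.22. Its highest level, 0.52, was in the peritoneum line of mouse 4, where Fdps and Pmvk also peaked. Chromosome 8 reached 0.44 in that line, where Mvd peaked. Its level was lower in metastasis lines in 4 of 6 mice (mean -0.01 ± 0.26), and Mvd was higher in 6 of 6. Chromosomes 5 and 17, with Mvk and Acat2, differed by means of 0.12 ± 0.10 and 0.08 ± 0.13. The part of any chromosome level, that of chromosome 13 included, in the differences of the 8 genes was not tested.

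After the chromosome level was subtracted from each gene's log2 CPM, 3 of 8 genes passed in limma, against 19.3% of all genes. Acat2 stood at 0.34 (adjusted p = 0.0279), Mvk at 0.25 (adjusted p = 0.0456) and Mvd at 0.42 (adjusted p = 0.0305), each higher in 6 of 6 mice. The other 5 did not pass. Values before the subtraction are from edgeR and those after it from limma, and the same limma fit without the subtraction was not run. Hmgcs1 moved from -0.43 to -0.18 and Ggps1 from -0.36 to -0.10. Idi1 changed sign, from -0.03 to 0.22, and was then higher in 5 of 6 mice. Pmvk moved from 0.28 to 0.12 and Fdps from 0.17 to 0.01. On this scale Hmgcs1 kept the lowest value of the 8, and in mouse 5 it was higher in metastasis lines by 0.23, where the difference had been -0.35 before the subtraction.

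**Figure D3:**
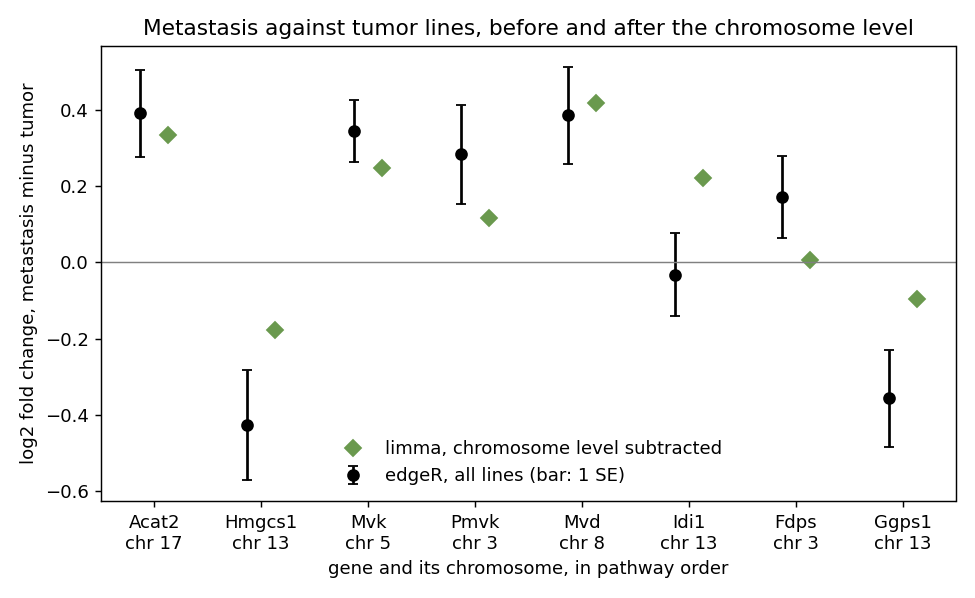
Log2 fold change of metastasis over tumor lines for each gene, in pathway order with its chromosome, as black points with bars of 1 SE from edgeR and as green diamonds from limma after the chromosome level was subtracted. The 3 genes of chromosome 13 move upward and the 2 of chromosome 3 downward, and Acat2, Mvk and Mvd stay between 0.25 and 0.42.

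The 8 genes did not vary as 1 block. Correlations over the 16 lines are descriptions, since lines share mice, and carry no test. On log2 CPM the highest were Acat2 with Mvk (Pearson 0.84, Spearman 0.80), Pmvk with Mvd (0.84, Spearman 0.83) and Mvk with Pmvk (0.81, Spearman 0.80). Ggps1 was negatively related to Acat2 (-0.50) and weakly related to Hmgcs1 (0.16), with which it shares a chromosome. After the chromosome level was subtracted, Acat2 and Mvd went from 0.62 to 0.92, Acat2 and Idi1 from 0.36 to 0.77, Mvk and Fdps from 0.47 to 0.77, and Pmvk and Mvd from 0.84 to 0.90. Ggps1 then had negative values with all 7 others, among them -0.70 with Idi1 and -0.44 with Hmgcs1. Hmgcs1 went from -0.36 to 0.11 with Acat2, from -0.06 to 0.11 with Mvk and from -0.33 to 0.11 with Fdps. With Pmvk it went from -0.08 to 0.47, with Idi1 from 0.51 to 0.46 and with Mvd from 0.10 to 0.29. The subtraction was chosen as a scale for correlations after the data had been seen.

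**Figure D4:**
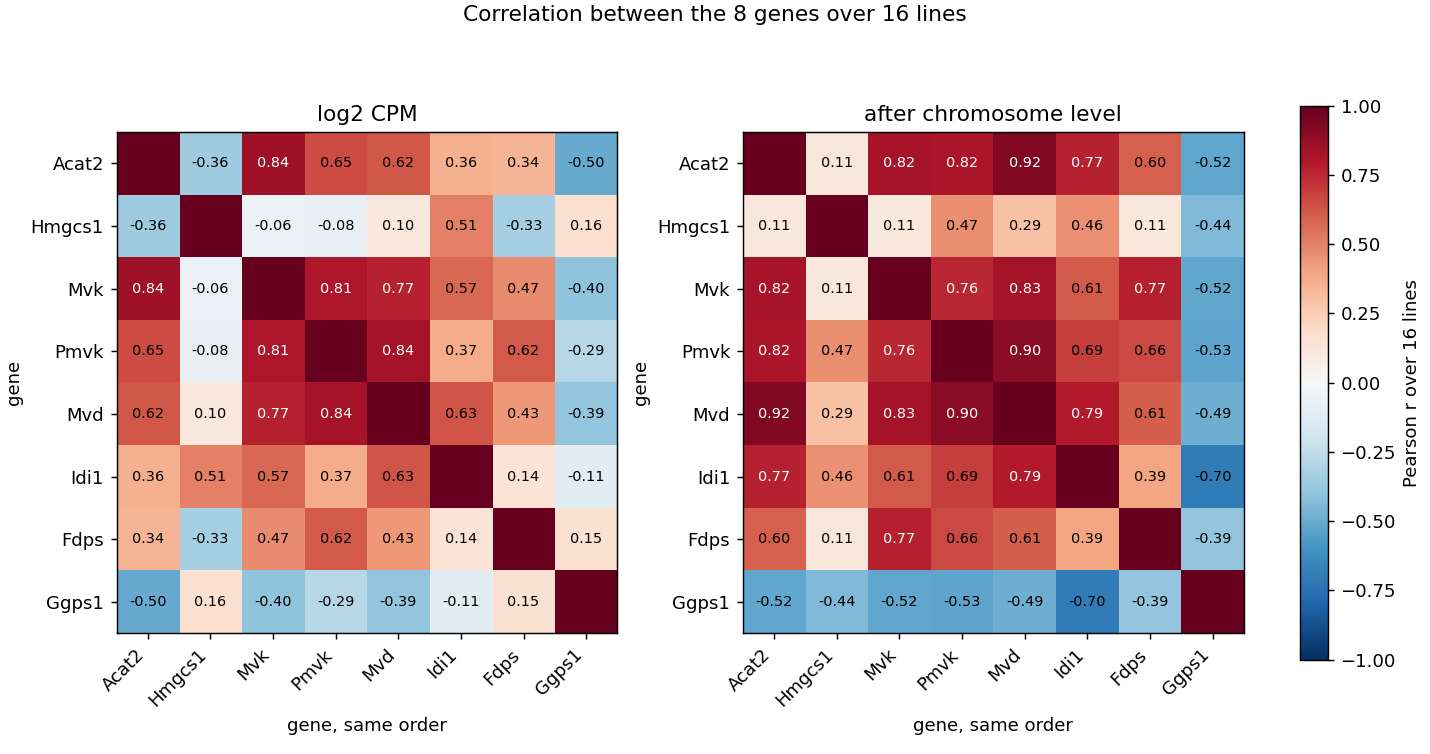
Pearson correlation between the 8 genes over 16 lines, on log2 CPM at left and after the chromosome level was subtracted at right, from -1 (blue) to 1 (red). Acat2, Mvk, Pmvk, Mvd and Idi1 form a block of values from 0.61 to 0.92 at right, and Ggps1 is negative against every other gene.

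The genes most like the arm were ranked by Pearson correlation with the mean z-score of the 8 genes. They were taken from 8434 genes with a mean of at least 10 CPM, or 8416 after the chromosome level was subtracted. The 8 genes themselves and predicted gene models were left out. On log2 CPM the 10 highest were Entpd7 (0.91), Avpi1 (0.90), Asb8 (0.88), Cdc42ep5 (0.87), Pcyt1a (0.86), Gipc2 (0.86), Htatip2 (0.86), Got1 (0.85), Rfk (0.85) and Rps6kb2 (0.85), of which 5 lie on chromosome 19. After the chromosome level was subtracted, the 10 highest were Ebp (0.95), Asb8 (0.93), Urgcp (0.92), Bicdl1 (0.91), Pcyt1a (0.91), Gipc2 (0.90), Nadk (0.90), Rragc (0.90), Ethe1 (0.89) and Mboat1 (0.89). Ebp encodes a sterol isomerase of cholesterol synthesis, and Pcyt1a the regulated enzyme of phosphatidylcholine synthesis. Taken 1 by 1 on log2 CPM, the gene most like Ggps1 was Tbce (0.92), on the same chromosome, and the gene most like Mvk was Grk2 (0.92). Fdps was most like Ube2l3 (0.91), Acat2 most like Arpc1b (0.93) and Hmgcs1 most like Etfb (0.90). The others were closest to Gipc2 (Pmvk, 0.91), Ppp2r5b (Mvd, 0.93) and Tspan15 (Idi1, 0.87).

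Other genes of the pathway were taken from 6 lists. Their counts stand beside the 6.59% of all genes that rose and the 9.92% that fell in edgeR. In the branch from squalene to cholesterol, 1 of 12 genes rose and 0 fell, with a median log2 fold change of 0.19. Sqle, squalene epoxidase, rose from 209 to 295 CPM (0.49, SE 0.12, adjusted p = 0.0187), short of the threshold in 11 of 38 alternative settings. Cyp51, the lanosterol demethylase, went from 383 to 501 CPM (0.41, adjusted p = 0.0627) and Msmo1, the sterol methyl oxidase, from 330 to 395 CPM (0.21, adjusted p = 0.308), neither past the test. After the chromosome level was subtracted 3 of 12 rose, among them Sqle (0.39) and Sc5d (0.56), the latter named after its values were seen. Over all 15547 genes on that scale, 1448 rose and 1556 fell. This branch followed the arm most closely of the 6 lists: the median correlation of its genes with the mean of the 8 was 0.56 on log2 CPM and 0.78 after the subtraction, when 9 of 12 genes exceeded 0.5, against 14.7% of all genes.

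Of the acetyl-CoA supply, 0 of 5 genes passed. Acly, ATP citrate lyase, held 440 CPM in tumor and 413 CPM in metastasis lines (-0.09, adjusted p = 0.452), and Acaca, acetyl-CoA carboxylase, 141 and 128 CPM (-0.15, adjusted p = 0.316). Among the entry enzymes and paralogs, 0 of 5 tested passed. Acat1, the mitochondrial thiolase, held 66.7 and 66.4 CPM (-0.07, adjusted p = 0.741). Acat3, a near copy of Acat2 on the same chromosome, held 1.23 and 1.15 CPM, and reads shared by such copies are divided by estimate. Idi2, the paralog of Idi1, stayed below the filter at 0.0239 and 0.0730 CPM. At an unadjusted p under 0.05 in edgeR, 1 gene of both lists stood out, Acss1, mitochondrial acetyl-CoA synthetase, at 13.1 and 7.88 CPM (-0.85, adjusted p = 0.0990).

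In sterol sensing and uptake, 1 of 16 genes rose and 1 fell, with a median of -0.01. Soat1, which esterifies cholesterol for storage, rose from 66.5 to 199 CPM (1.72, SE 0.28, adjusted p = 0.00443) and passed in 38 of 38 alternative settings. Mylip, a ubiquitin ligase gene induced by sterols that lies on chromosome 13, fell from 1.77 to 0.460 CPM (-2.33, SE 0.48, adjusted p = 0.0102).

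Among the users of isoprenoids, 0 of 18 rose and 2 fell, with a median of -0.04. Icmt, the methyltransferase of prenylated proteins, fell from 69.8 to 53.8 CPM (-0.41, adjusted p = 0.0339) and Dhdds, a subunit of the dolichol-making cis-prenyltransferase, from 29.7 to 23.1 CPM (-0.40, adjusted p = 0.0260). Icmt fell short of the threshold in 23 and Dhdds in 18 of 38 alternative settings. Both lie on chromosome 4, and neither passed after the chromosome level was subtracted (-0.21 and -0.20). On that scale 1 other gene of the list rose, Chml (0.26, adjusted p = 0.0445), and 2 fell, Coq2 (-0.46, adjusted p = 0.0200) and Pggt1b (-0.24, adjusted p = 0.0461), all 3 named after their values were seen. Rabggtb and Fnta, subunits of the enzymes that prenylate Rab proteins and that farnesylate proteins, differed by 0.24 (adjusted p = 0.180) and 0.13 (adjusted p = 0.287). In the list of recycling and neighbouring steps, 0 of 5 rose and 1 fell: Pcyox1l went from 19.8 to 10.1 CPM (-1.01, adjusted p = 0.0179). Pcyox1, which oxidizes prenylcysteine, held 101 and 98.1 CPM (-0.07, adjusted p = 0.764). After the chromosome level was subtracted, 1 of the 5 genes of this list rose and 2 fell in limma.

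Between metastatic sites no difference was detectable. The edgeR test that the 5 site terms are equal called 0 of 8 members and 0% of all genes, with 266 genes and 0 members at an unadjusted p under 0.05, while DESeq2 called 44 genes and 0 members. Lung and ovary are 1 line each. The 3 peritoneum lines came from mice 2, 3 and 4. On the log2 scale they differed from tumor lines by 0.55 for Acat2, 0.51 for Mvk and 0.63 for Mvd. The difference was 0.54 for Pmvk, 0.48 for Fdps, -0.58 for Hmgcs1, -0.17 for Ggps1 and -0.04 for Idi1. Pmvk and Fdps lie on chromosome 3, whose level in these lines was 0.31, 0.26 and 0.52. After the chromosome level was subtracted, the within-mouse difference in mice 2, 3 and 4 was -0.13, 0.22 and 0.17 for Fdps. For Pmvk it was -0.08, 0.35 and 0.17. No site term of a member passed after adjustment, and the closest was Mvk in peritoneum (SE 0.13, adjusted p = 0.0765). Sites and mice overlap little, so a site and the mice it came from cannot be told apart.

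Lines of mouse 6 stood high in Idi1 on the CPM scale, but no difference between mice passed. The edgeR test of the mouse terms called 0 of 8 members, against 0.154% of all genes (24 genes), and 3 members, Mvd, Mvk and Idi1, had an unadjusted p under 0.05, as did 2661 genes. DESeq2 called these 3, and the edgeR fit with no count filter called Mvd. The 5 lines of mouse 6 held 88.5 to 142 CPM of Mvd, against 57.6 to 79.4 CPM in the tumor lines of the other mice and 73.9 to 167 CPM in their metastasis lines, which overlapped them. In Idi1 the 5 lines of mouse 6 held 379 to 450 CPM, above all 11 lines of the other mice, whose highest was 363 CPM. Idi1 lies on chromosome 13, whose level was -0.59 and -0.29 in the metastasis lines of mouse 5. In the lines of mouse 6 that level ran from -0.03 to 0.19. After the chromosome level was subtracted, the lines of mouse 6 no longer lay above all lines of the other mice. All 5 lines of mouse 6 also had low chromosome 3 levels, from -0.20 to -0.07, and their Fdps ran from 342 to 425 CPM.

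No isoform share of the arm passed a test between the groups. RSEM's isoform percent was compared for 11 isoforms with a mean of at least 10%, by an exact sign-flip test over 6 mice, and 0 passed after adjustment. Hmgcs1-201 held 83.9% ± 0.65 of Hmgcs1 transcripts in tumor lines and 85.2% ± 1.16 in metastasis lines, higher in 6 of 6 mice, with an exact two-sided p of 0.031, the smallest that 6 mice allow (adjusted p = 0.344). Ggps1 was the gene most divided among isoforms, with Ggps1-201 at 46.9% ± 6.39 and 43.1% ± 5.31. Mvd and Pmvk were each made almost entirely of 1 isoform, Mvd-201 at 99.5% and 99.0% and Pmvk-201 at 97.5% and 97.8%.

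Neighbouring genes are given because the strand setting of the counting was not given in the sources used here, and whether reads were shared with them was not tested. Mmab, a cobalamin adenosyltransferase gene, starts 209 bases from the start of Mvk on the opposite strand. It held 27.1 CPM in tumor and 21.2 CPM in metastasis lines (-0.35, adjusted p = 0.102), opposite in sign to Mvk. After the chromosome level was subtracted, Mmab stood at -0.46 in limma (adjusted p = 0.0286), which passed. Arid4b overlaps Ggps1 by 257 bases on the opposite strand and fell (-0.60, SE 0.14, adjusted p = 0.0186), also on chromosome 13. Gm20388, a gene model that spans Mvd on the opposite strand, reached 91.9% of the CPM of Mvd in 1 line and went from 46.0 to 36.4 CPM (-0.31, adjusted p = 0.433). Gm48342, antisense to Hmgcs1, reached at most 0.798% of its CPM.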

How the data were processed

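RNA of 16 organoid lines was sequenced from stranded total RNA libraries depleted of ribosomal RNA, per the labels' protocols. The submitters' processing notes name FastQC 0.11.8, STAR 2.6.0c, RSEM 1.3.1 and GRCm38.p6, and the strand setting of counting was not given in the sources used here. Per the file headers, the authors deposited RSEM expected counts, which are estimates, together with TPM and FPKM per gene and isoform. Per the file headers, the authors' isoform tables also hold each isoform's share of its gene in percent. FPKM values as deposited were not used.

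The 8 genes and all lists and tests were chosen with earlier results of these data known. Of 55487 gene identifiers, 55394 matched GENCODE mouse M21. Expected counts were rounded and tested with edgeR 4.0.16 in R 4.3.3 (quasi-likelihood, TMM factors, filterByExpr by stage, terms for mouse and stage, Benjamini-Hochberg over 15573 genes, threshold 0.05); all adjusted p for single genes are from it unless another tool is named. The mouse is the block, because same-numbered lines come from 1 animal. Since lines from the same mouse share an animal, and nothing says whether they share a lesion, p partly measures the spread between lines. Settings were tested on simulated data. Alternatives used DESeq2 1.42.0, limma 3.58.1 (log2 CPM with a prior count of 2, or log2 TPM with a pseudocount of 1 or 0.1), other filters and normalizations, and each line or mouse left out. TPM between genes was rescaled without Gm42418, Gm26917, AY036118, CT010467.1 and Lars2, the last 2 added after the data had been seen. The 3 genes whose shares are given as ribosomal RNA reads are AY036118, CT010467.1 and Lars2. Named genes are the 8, every list gene that passed (up to 6 a list), up to 2 further genes a list with the highest level, and the most alike genes by correlation; some genes of the lists are not reported here. Sequences are from RefSeq, GRCm38.p6. No 2 libraries held identical values. Depth ran from 24624420 to 49965492 expected counts; the lowest count of any of the 8 genes in a line was 144, for Ggps1.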

Additional observations from a re-analysis of the deposited data

Results flagged for a closer look

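Mvd in tumor replicate 6 of mouse 6, at 142 CPM, stood apart from the other 6 tumor lines, which ran from 57.6 to 88.5 CPM. Its gap to the nearest line was 0.635 of the group's whole range. The check was made on 16 groups (8 genes, tumor and metastasis lines), and chance marks about 1 in 20 groups. In the same line Acat2, Mvk, Pmvk and Idi1 were also the highest of the tumor lines, and the sum of 8 p53 targets, 259 CPM, was the lowest of the tumor lines. The part of that in the level of Mvd was not tested.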

How the results depend on the processing

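The count of mevalonate genes called between metastasis and tumor lines, 2 with all lines, is unstable. It was 0 with no replicate block, that is without the mouse term, when Mvk stood at adjusted p = 0.0820 and Acat2 at 0.0663. It was 0 in limma on log2(TPM + 1) and on log2(TPM + 0.1), both on TPM as deposited, which ribosomal RNA reads lower unevenly. It was 4 in DESeq2 (Acat2, Mvk and Mvd higher, Hmgcs1 lower), 1 with no count filter, 1 with the share of either set of 3 ribosomal RNA genes as a covariate and 0 without the 2 libraries richest in such reads. Leaving out single lines gave 0 to 4 and leaving out single mice 0 to 5. The count of all genes called, 2571, became 893 and 848 in limma on TPM with the 2 pseudocounts, 3968 in DESeq2 and 794 without the same 2 libraries, and ran from 1133 to 3910 over left-out lines and from 766 to 2950 over left-out mice. Between mice, DESeq2 called 3 members and the fit with no count filter 1, against 0. The sign of Idi1 turned from -0.03 to 0.22 after the chromosome level was subtracted and to 0.013 without the 2 libraries, and over left-out lines and mice Idi1 ran from -0.11 to 0.040, above 0 without mouse 1 (0.038), either of its lines or metastasis replicate 4. The other 7 members kept their sign in all 38 settings. The cause of these shifts was not tested. The counts of members differing between sites, of isoforms and of motifs did not move in the alternatives run, while DESeq2 called 44 genes between sites against 0 in edgeR.

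The lowest count of the 8 genes was 144, for Ggps1 in metastasis replicate 4, and the part of counting error was not tested. The number of mice, 6, limits what can be called: no exact test over mice can go below 0.031.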

Other observations

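Among the pathway genes of the 6 lists, several varied against the arm after the chromosome level was subtracted. The lowest correlations with the mean of the 8 genes were those of Mbtps1 (-0.89), a protease that cleaves SREBP, Pggt1b (-0.84), a subunit of a protein prenyltransferase, Mylip (-0.77) and Rce1 (-0.77), the protease of prenylated proteins. The highest beside Ebp were Acss2 (0.88), which makes acetyl-CoA from acetate, Lss (0.87), lanosterol synthase, and Nsdhl (0.87), a sterol dehydrogenase. On log2 CPM the same genes stood at -0.49 for Mbtps1, -0.77 for Pggt1b, -0.74 for Mylip, 0.42 for Rce1, 0.73 for Acss2, 0.36 for Lss and 0.62 for Nsdhl, so Rce1 changed sign with the scale. These genes were singled out after their values were seen, and correlations over 16 lines of 6 mice carry no test.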
